A study of Mus musculus with 3 samples.

Results

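Pit cells, the surface mucous cells of the mouse stomach, were set against parietal and zymogenic cells of the same tissue on the single array that carried their RNA, 1 of 3 arrays in all. The array was taken by its title, and genes were sorted by whether they stood above or below both other lineages. Each lineage had been cut from gastric epithelium by laser-capture microdissection (spot diameter 7.5 µm), and its amplified, biotin-labelled RNA was hybridised to an Affymetrix Mouse Genome 430 2.0 array. To qualify as a pit cell, a cell had to stain for E-cadherin, fail to bind the lectin DBA and lie in a band 2 to 3 cells deep at the top of a gastric unit, short of the open surface. Parietal cells, recognised by DBA and by autofluorescence, had been picked one by one from the pit zone of those units just before. Zymogenic cells stained for E-cadherin and bound neither GSII nor DBA, and they were taken on different slides from unit bases that had first been cleared of parietal cells. No genotype, strain, age or treatment of the mice is given in the sources used here. Between 3000 and 5000 cells of each lineage, from 4 to 5 mice, went into 1 pool of 20 ng, so the mice cannot be told apart, and no difference given here has a replicate check or a p-value. On pooled cells, fewer cells of a type and less RNA per cell cannot be told apart either, and for the zymogenic array the same holds of slide and lineage.

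Pit cells, also called foveolar cells, line the mouth of the gastric gland and the stomach surface. They arise from stem cells lower in the unit, move upward as they mature and are shed at the top after a few days. They secrete the gel-forming mucin Muc5ac, trefoil peptides and gastrokines, and with bicarbonate this mucus shields the wall from acid and pepsin. Parietal cells make that acid with the proton pump, and zymogenic (chief) cells make pepsinogen and other digestive proteins.

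Values are intensities as deposited, from 1 probe set per gene, and are given for each gene in the order pit, parietal, zymogenic. Anything below 23.3 was raised to that value, the detection floor, which is the 95th percentile of 80 receptor probe sets (olfactory and vomeronasal) on the zymogenic array. The same percentile was 15.2 on the pit array and 11.2 on the parietal array. A fold against a value at the floor is given as at least that fold. Of 18194 genes, 4138 were above the floor somewhere, 2616 of them on the pit array. As a measure of scatter alone, different probe sets of 1 gene gave log2 ratios with an SD of 0.43 for pit over parietal (329 genes) and 0.49 for pit over zymogenic (208 genes). For the 1186 genes detected on every array, the median log2 ratio of pit was -0.29 to parietal and 0.21 to zymogenic, and quantile normalization brought these to -0.045 and -0.099. The 3′ to 5′ signal ratio, a sign of RNA length after amplification, was 9.04, 26.1 and 14.7 for the actin control and 6.66, 8.84 and 3.88 for Gapdh, in the same order of arrays. Several of the 5′ signals lay under the floor, so these ratios are imprecise, and their part in the differences was not tested.

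Genes that mark each lineage were read first. The marker lists were drawn up with earlier results of these data known, so they are no independent check of the label. Muc5ac, the surface mucin, stood at 1225 on the pit array against 425 and 14.5, and Tff1, a trefoil peptide of the same secretion, at 926 against 601 and 22.5. Krt20, a keratin of mature gut epithelium, was at 657 against 32.2 and 8.83, and Psapl1, a prosaposin-like protein, at 9552 against 353 and 12.1. All 4 were highest in pit cells, and Tff1 was less than 2-fold above the parietal value as deposited but passed that mark after quantile normalization. All 17 listed pit markers with a probe set exceeded the floor in pit and in parietal cells, and 4 did so in zymogenic cells. Of the 17, 5 were at least 2-fold above both other lineages, namely Muc5ac, Krt20, Psapl1, the forkhead factor Foxq1 (542 against 238 and 6.26) and the stomach calpain Capn8 (69.8 against 23.9 and 1.74). Across all 4138 genes, 5.78% were 2-fold above both others in pit cells and 2.61% were 2-fold below. The summed signal of the marker list was 27117 on the pit, 23778 on the parietal and 329.9 on the zymogenic array. The pit and parietal collections thus shared these markers, and not all were higher in the pit one. Of the 17, 3 were at least 2-fold below the parietal value. They were Muc1, Sult1c2 and the gastrokine Gkn2 (2723 against 7987 and 8.28), a partner of trefoil peptides. Gkn1, Ctse, Anxa10 and Vsig1 were also higher in the parietal collection as deposited, by less than 2-fold.

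Markers of other cell types were then read on the pit array. The parietal list had 5 of 17 members above the floor there, 9 on the parietal and 7 on the zymogenic array, with a summed signal of 499.9 on the pit, 5886 on the parietal and 1471 on the zymogenic array. Of the zymogenic list, 4 of 12 exceeded the floor, and the sum was 425 on the pit, 4364 on the parietal and 37422 on the zymogenic array. Mucous neck markers had 4 of 5 above it, among them Tff2 (110.4 against 402 and 21.9), and Wfdc2 (88.96 against 21.9 and 3.09) was 2-fold above both others. Gastric endocrine markers summed to 111 on the pit, 57.9 on the parietal and 1001 on the zymogenic array, and ghrelin (29.2 against 7.43 and 298) was the 1 of 11 above the floor in pit cells. Leukocyte markers had 3 of 14 above it (Cd74, H2-Aa and Laptm5), with sums of 192 on the pit, 512 on the parietal and 401 on the zymogenic array, and fibroblast and smooth muscle markers 3 of 14, with sums of 282 on the pit, 563 on the parietal and 411 on the zymogenic array. None of 8 endothelial and red cell markers exceeded the floor on any array, and of 12 squamous forestomach markers Sprr1a (94.8 against 16.02 and 88.5) did in pit cells. Of 16 cycling cell markers, Cdc20 (51.3 against 55.1 and 0.164) and Stmn1 (26.3 against 119 and 18.3) did. Whether cells of other types have a part in the differences that follow was not tested.

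To find what sets pit cells apart, genes at least 4-fold above both other lineages were collected. There were 37, or 0.894% of the 4138, and 21, or 0.507%, lay at least 4-fold below both. Of the 37, 15 belonged to 4 lists, of keratins, calcium-binding membrane proteins, actin regulators and growth arrest, and 14 to no list. These 4 lists hold 54 of the 4138 genes (1.30%), but they were chosen with earlier results known, so nothing is read from the overlap. Of the 21, 8 were zymogenic or parietal markers or pancreatic-type secretory proteins. In 15 of the 37 neither other array exceeded the floor, so that the fold is a lower bound, and in 11 of the 21 the pit value itself did not. The folds to the nearer array ran from 4.09 to 38.6 on the high side, with a median of 5.16, and from 4.11 to 15.1 on the low side, with a median of 6.77. After quantile normalization 43 genes were higher and 19 lower, and 34 and 18 of them were the same as on the deposited scale. The split depended on the scaling, with 66 higher and 17 lower when the arrays were brought to 1 median. When they were scaled to the BioB and BioC hybridisation controls, which were lower on the parietal array (302.7) than on the pit (712) and zymogenic (711) arrays, 9 were higher and 31 lower.

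**Figure D1:**
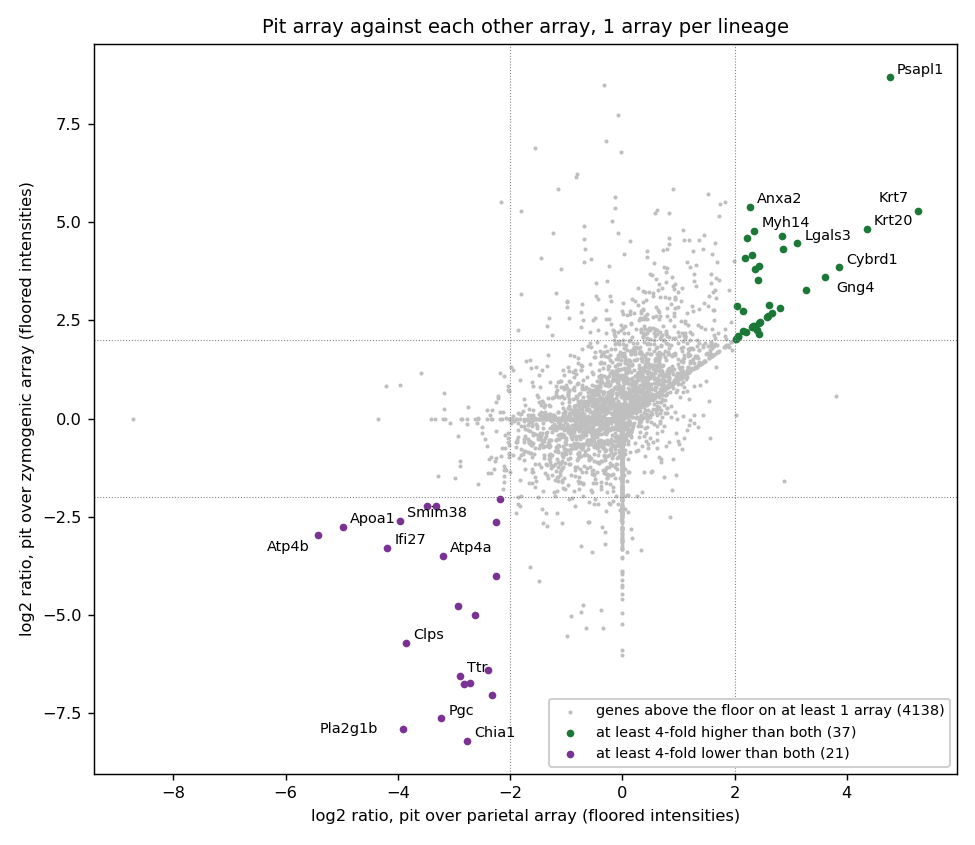
Log2 ratio of the pit array to the parietal array (x axis) and to the zymogenic array (y axis) from floored intensities, 1 point per gene; dotted lines mark 4-fold. The 37 genes above both lie at the upper right, with Psapl1 and Krt7 outermost, and the 21 below both at the lower left, where Chia1 and Pla2g1b lie farthest down and Atp4b farthest left.

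Motif letters in promoter sequences of the higher genes were counted beside those of all genes, without a test. RefSeq promoter windows (GRCm38.p6, 250 bases before to 50 after a start) were matched for 29 of the 34 genes higher in both scalings. The letters TGANTCA, where N is any base, include the sites that AP-1 dimers of Fos and Jun proteins bind but are wider than them. Genes with these letters on either strand were 5 of the 29 (17.2%), against 6.74% of the 3368 genes above the floor with a window and 8.97% of all 27025 genes in the table. They were Psapl1, Cybrd1, Anxa2, Inpp5a and Lmna, the last with its match after the start. Of the 18 lower genes 11 were matched, and 1 of them, Car9, held these letters. The letters of the TATA box, TATAAA, occurred on either strand in 6 of 29 (20.7%), against 10.4% of genes above the floor and 15.7% of all. In Fmo5 (at -195) and Psapl1 (at 4, after the start) they lay on the opposite strand. The GC box, GGGCGG, was found on either strand in 22 (75.9%), against 68.3% and 38.2%. The E-box that Mxd1 and Myc share, CACGTG, was in 2 of 29 (6.90%), against 12.1% and 8.09%. A GATA site was also searched for on either strand, in the form that binds the factors of foregut epithelium, and its letters, AGATAA, were found in 1 of 29 (3.45%), against 7.78% and 12.7%. These counts are small, and a match describes letters and not binding. The 250 bases before the start are shown for Psapl1, Cybrd1 and Anxa2, the 3 with TGANTCA whose level a further probe set repeats, and for Krt20 because of its TATA box, 5′ to 3′ on the gene's strand, with TGANTCA and TATAAA in capitals.
Psapl1: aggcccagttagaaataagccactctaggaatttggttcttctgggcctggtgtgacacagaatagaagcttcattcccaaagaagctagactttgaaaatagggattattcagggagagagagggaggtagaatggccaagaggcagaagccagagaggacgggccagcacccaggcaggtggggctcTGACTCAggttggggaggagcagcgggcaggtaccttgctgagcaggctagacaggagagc
Cybrd1: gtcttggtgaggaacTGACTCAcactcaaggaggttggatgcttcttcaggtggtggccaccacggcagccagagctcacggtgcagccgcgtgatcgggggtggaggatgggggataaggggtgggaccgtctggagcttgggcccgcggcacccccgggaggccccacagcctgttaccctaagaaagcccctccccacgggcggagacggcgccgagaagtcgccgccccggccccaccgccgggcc
Anxa2: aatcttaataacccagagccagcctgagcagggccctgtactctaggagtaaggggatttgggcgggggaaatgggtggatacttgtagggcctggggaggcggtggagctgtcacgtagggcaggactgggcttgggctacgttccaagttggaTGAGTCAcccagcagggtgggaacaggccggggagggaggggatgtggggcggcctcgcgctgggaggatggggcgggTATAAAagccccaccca
Krt20: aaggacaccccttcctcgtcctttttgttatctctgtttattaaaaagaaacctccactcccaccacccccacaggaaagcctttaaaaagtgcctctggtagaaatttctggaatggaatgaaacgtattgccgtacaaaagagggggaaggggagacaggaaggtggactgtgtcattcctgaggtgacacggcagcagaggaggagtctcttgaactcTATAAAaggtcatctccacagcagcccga

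The windows lie at chr5:36203771-36204020 (+ strand), chr2:71117804-71118053 (+ strand), chr9:69453433-69453682 (+ strand) and chr11:99438154-99438403 (- strand). Counted from the start of transcription, the AP-1 letters begin at -61 in Psapl1, -235 in Cybrd1 and -95 in Anxa2. The TATA box begins at -29 in Krt20 and -17 in Anxa2. The windows of Krt7, Lgals3 and Mxd1 hold no TGANTCA.

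Keratins build the intermediate filaments that hold an epithelial cell together. Krt7, a type II keratin of simple and ductal epithelia, was at 897 on the pit array against 7.35 and 22.7, which is at least 38.6-fold higher because neither other value exceeded the floor. Krt20, a type I keratin of mature pit and villus cells, was 20.4-fold above the parietal value (657 against 32.2 and 8.83). The remaining members of the list did not follow them. Krt8 (3672 against 5879 and 155), Krt18 (1155 against 4436 and 487) and Krt23 (34.2 against 97.4 and 19.8) were higher in the parietal collection, and Krt19 (1322 against 2928 and 3.53) was so as deposited but level after quantile normalization. In all, 2 of 6 keratins were at least 2-fold above both others and 0 below, where 5.78% of all genes were above and 2.61% below. As deposited, the list's median log2 ratio was -0.91 to parietal cells, with 3 of 6 at least 2-fold lower, and 4.69 to zymogenic cells. After quantile normalization Krt8 came close to its parietal value (4524 against 4942), and Krt18 was less than 2-fold lower (1573 against 3086). The parietal median and count therefore hold on the deposited scale only.

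Products of the secretory and apical surface came next. Psapl1 was 27.1-fold above the parietal value and at least 411-fold above the zymogenic one. Psap, the ubiquitous prosaposin from which lysosomal saposins are cut, was near or under the floor on all 3 arrays (18.9 against 31.2 and 11.4). Of 17 measured genes of the lysosome list, Psapl1 and the acid lipase Lipa (74.4 against 25.3 and 6.70) were 2-fold above both others. Rnase4, a secreted ribonuclease, was at 148 against 15.4 and 1.66 (at least 6.37-fold), and Clca1, a secreted regulator of chloride channels found in mucous cells, at 107 against 6.21 and 1.75 (at least 4.62-fold). Enzymes that build O-linked mucin glycans differed less. Of 23 with a probe set, 9 were above the floor somewhere, and 1, the initiating transferase Galnt10 (81.5 against 15.6 and 13.7), was 2-fold above both others. Over all genes 5.78% were 2-fold above both others. As a measure for a whole list, the pit value's log2 was set against the average log2 in parietal and zymogenic cells, and the median difference was 0.79 for these 9 genes and -0.052 for all 4138. Galnt10 exceeded the floor on the pit array alone, and the median of the other 8 was 0.43. The list median was 0.39 when probe sets were averaged. This list too was chosen with earlier results known.

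**Figure D2:**
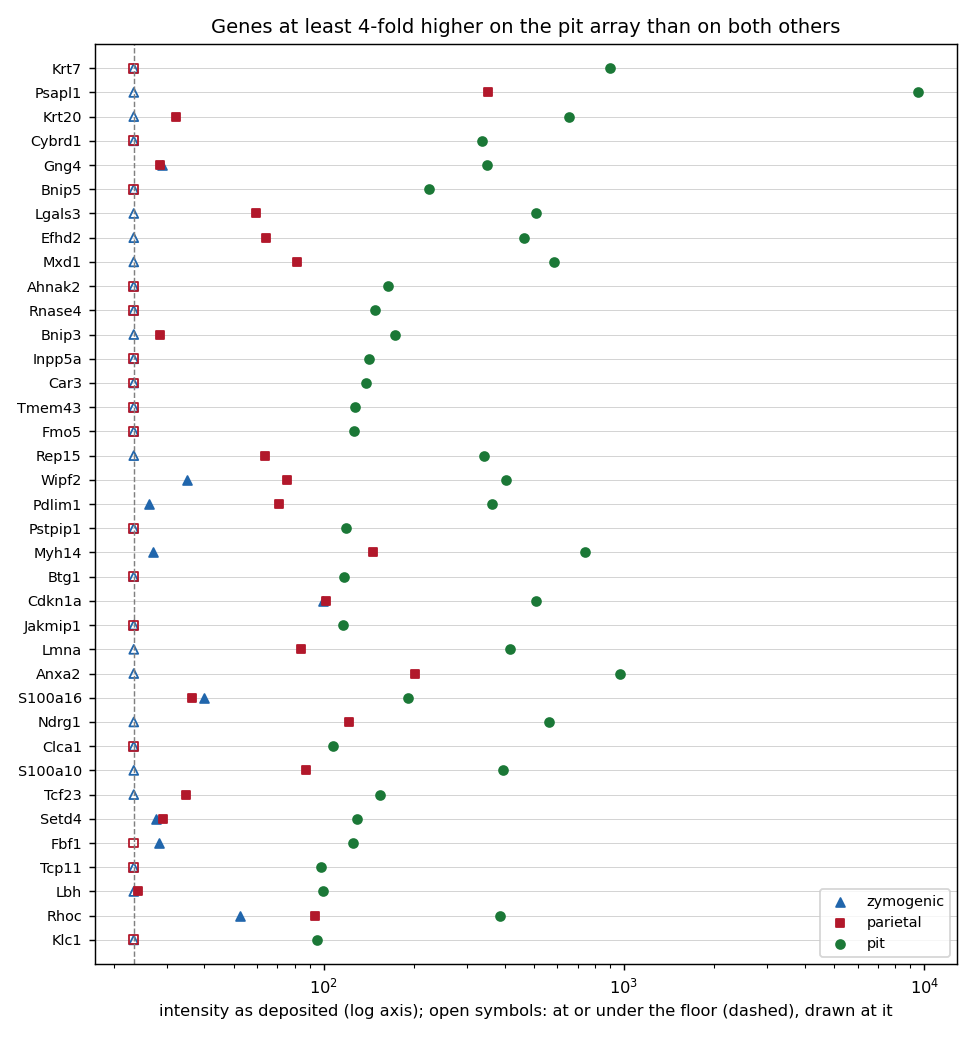
Intensity as deposited (x axis, log scale) of the 37 genes at least 4-fold above both other lineages in pit cells, 1 row per gene, with 1 symbol per array; open symbols are values at or under the floor of 23.3, drawn at it. The pit symbol is rightmost in every row, and in 15 rows both other symbols are open.

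Annexins bind acidic phospholipids when calcium rises, S100 proteins are small EF-hand partners of them, and galectins bind β-galactosides of mucins and membrane proteins. Of 22 members of this list with a probe set, 17 were above the floor somewhere and 8 were at least 2-fold above both others, with 0 below. Over all genes 5.78% were above both and 2.61% below. The list median was 1.86 (0.86 to parietal and 1.96 to zymogenic cells). It was 1.17 when probe sets were averaged and 1.25 with the floor added to all values. In 2 of the 17 the pit array alone exceeded the floor, and the list was chosen with earlier results known, so the median supports no direction. Anxa2 was at 971 on the pit array against 201 and 19.7 (4.82-fold), and S100a10, with which it forms a tetramer on membranes, at 396 against 87.4 and 6.74 (4.53-fold). S100a16 stood at 190.0 against 36.2 and 39.7, 4.78-fold as deposited and 3.76-fold after quantile normalization. S100a6 (1052 against 295 and 14.1), S100a14 (90.6 against 10.9 and 2.89), S100a1 (86.8 against 21.3 and 24.6) and Anxa1 (196 against 62.1 and 0.0184) were also 2-fold above both. Galectins were split. Lgals3, which crosslinks surface glycans, was 8.63-fold higher in pit cells (511 against 59.2 and 12.9), while Lgals2 (42.1 against 657 and 5.94) was highest in the parietal collection and Lgals1 (118 against 202 and 211) was lower in pit cells than in both others.

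Genes of the cortical actin network, which shapes the apical membrane, were read next. Of 31 members, 21 were above the floor somewhere, 8 were at least 2-fold above both others and 0 were below, with a median of 1.60 (0.38 to parietal and 2.88 to zymogenic cells). Over all genes 5.78% were above both and 2.61% below, and this list too was chosen with earlier results known. Myh14, the heavy chain of nonmuscle myosin IIC, was at 741 on the pit array against 146 and 27.01 (5.08-fold). Efhd2, a calcium-binding actin regulator, was at 465 against 64.2 and 6.84 (7.24-fold), and Wipf2, a partner of WASP proteins, at 404 against 75.4 and 35.1 (5.36-fold). Pdlim1, which binds α-actinin, was at 365 against 70.7 and 26.1 (5.16-fold), and α-actinin 4 itself, Actn4, at 217 against 70.8 and 22.8. The giant scaffold protein Ahnak2 was under the floor on both other arrays (164 against 2.79 and 3.02, at least 7.03-fold), its relative Ahnak stood at 336 against 145 and 13.01, and the focal adhesion protein Lasp1 at 1072 against 484 and 68.2. Actin itself separated pit from parietal cells less. Actb was at 813 against 670.0 and 81.2 and Actg1 at 2172 against 4328 and 272, the latter level with the parietal value after quantile normalization. Against zymogenic cells, 17 of the 21 were at least 2-fold higher and 1 was lower, where 18.7% of all genes were higher and 10.3% lower.

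Further 4-fold members act in the cytoskeleton, the nucleus or membrane traffic without being on that list. Rhoc, a small GTPase of the actin cytoskeleton, was at 385 against 93.3 and 52.7 (4.13-fold). Pstpip1, an actin-associated adaptor known from leukocytes, was at 119 against 15.7 and 3.84 (at least 5.11-fold). Lmna, the A-type lamin, was at 417 against 83.7 and 22.5 (4.98-fold), and Tmem43, a protein of the inner nuclear membrane, at 127 against 16.9 and 3.53 (at least 5.46-fold). Klc1, a kinesin light chain, was at 95.1 against 7.28 and 9.32 (at least 4.09-fold), and Rep15, an effector of Rab15 in receptor recycling, at 343 against 63.4 and 9.45 (5.40-fold).

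Pit cells leave the cell cycle as they climb the unit, and a list of genes that restrain proliferation was measured for that reason. Of 21 listed genes 10 were above the floor somewhere, 5 were at least 2-fold above both others and 0 below, with a median of 1.72. Over all genes 5.78% were above both and 2.61% below. In 2 of the 10 the pit array alone exceeded the floor, and the list was chosen with earlier results of these data known, so the median describes these genes and supports no direction. Mxd1, which competes with Myc for its partner Max, was at 585 on the pit array against 81.5 and 11.7 (7.17-fold). Cdkn1a, the cyclin-dependent kinase inhibitor p21, was at 508 against 102 and 99.2, 4.99-fold as deposited and 3.58-fold after quantile normalization. Ndrg1, a differentiation-associated protein, was at 563 against 121 and 3.27 (4.64-fold), and Btg1, an antiproliferative factor, at 116 against 22.8 and 18.9 (at least 5.01-fold). Gadd45b, a stress sensor, was at 128 against 33.5 and 13.2, 3.83-fold as deposited and 4.32-fold after quantile normalization. Klf4, a factor of post-mitotic gut epithelium, did not separate the pit from the parietal array (159 against 194 and 9.23). The inhibitors Cdkn1b, Cdkn1c, Cdkn2b and Cdkn2d were under the floor on all 3.

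Immediate early genes, transcribed within minutes of a stimulus, code mostly for AP-1 subunits and other regulators. All 10 of 18 that exceeded the floor anywhere did so in pit cells, 5 in parietal and 1 in zymogenic cells. In 5 of the 10 the pit array alone exceeded the floor, which fixes their direction, so neither these counts nor the list median of 0.85 is evidence of one. Jund was at 669.6 on the pit array against 222 and 138, Fos at 70.1 against 27.9 and 2.87, Fosl2 at 100.3 against 46.8 and 4.67 and Ier3 at 255 against 84.98 and 4.54, and these 4 were at least 2-fold above both others. Jun (37.3 against 6.97 and 12.8), Egr1 (24.9 against 6.60 and 5.32) and Dusp1 (43.1 against 4.28 and 9.04) were above the floor in pit cells alone but within 2-fold of it. The summed signal of the list was 1358 on the pit, 504 on the parietal and 258 on the zymogenic array. These genes respond to tissue handling, and pit cells were cut after the parietal cells of each unit. The part of handling in these values was not tested.

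Bnip3, a mitochondrial receptor for mitophagy that hypoxia induces, was at 173 on the pit array against 28.3 and 16.5 (6.10-fold), and Bnip5 was at 224 against 7.37 and 2.25 (at least 9.63-fold). Of 13 measured genes on the hypoxia list these 2 were 2-fold above both others, where 5.78% of all genes were above and 2.61% below. Bnip5 exceeded the floor in pit cells alone. Car9, a carbonic anhydrase that marks hypoxic cells, was at least 4.67-fold lower in pit cells (21.2 against 260.2 and 109). Vegfa (66.6 against 41.6 and 30.7) and the glucose carrier Slc2a1 (233 against 144 and 21.9) were less than 2-fold above the parietal value, and the glycolytic kinase Pgk1 (301 against 652 and 206) was below it.

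Transport and metabolic genes on the high side were few. Cybrd1, a ferric reductase of the apical membrane that serves iron uptake, was at 335 on the pit array against 4.64 and 1.95 (at least 14.4-fold). It was the only 1 of 6 measured iron and zinc genes that was 2-fold above both others as deposited, where 5.78% of all genes were. Cybrd1 exceeded the floor in pit cells alone, which fixes its direction. The zinc importer Slc39a4 (93.3 against 55.5 and 9.17) joined it after quantile normalization. Mt1 and Mt2, the metallothioneins, were highest in the parietal collection (73.5 against 881 and 33.2, and 7.96 against 55.8 and 5.05). Of 11 measured ion transport genes, 4 were 2-fold above both others, against 5.78% of all genes. They were Clca1, the carbonic anhydrase Car3 (138 against 3.39 and 8.10, at least 5.95-fold), the epithelial sodium channel subunit Scnn1a (112 against 31.3 and 7.98) and the potassium channel Kcnk1 (59.6 against 14.9 and 18.2). In 3 of the 11, Clca1, Car3 and Kcnk1, the pit array alone exceeded the floor. This fixes their direction, so the count is no evidence of one. Further probe sets of Clca1 and Car3 stayed below the floor in all lineages. Slc4a2, the basolateral anion exchanger of parietal cells, was 2-fold below both as deposited (13.4 against 48.6 and 54.4) and not after quantile normalization. Car2, which supplies bicarbonate, was highest in the parietal collection (209.8 against 731 and 14.98).

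Among detoxifying enzymes, 1 of 18 measured was 2-fold above both others, the flavin monooxygenase Fmo5 (126 against 14.7 and 4.72, at least 5.40-fold). Over all genes 5.78% were, and Fmo5 exceeded the floor in pit cells alone. Several glutathione transferases were higher in the parietal collection, as Gsta4 (908 against 3165 and 20.00) and Gsto1 (2119.6 against 4992 and 80.9) show. Of the 18, 1 was at least 2-fold above the parietal value and 7 at least 2-fold below it, where 6.40% of all genes were above and 12.0% below. Hpgd, which inactivates prostaglandins, was 2-fold above both others (107 against 46.1 and 1.23), while Ptgs2 and Ptges, which make them, were under the floor on all 3 arrays. Erbb3, a receptor of the EGF family, was at 101 against 32.9 and 8.66, also 2-fold above both, whereas the ligand Tgfa was above the floor in zymogenic cells alone (10.2 against 15.8 and 513).

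Of 18 measured junction genes 3 were 2-fold above both others, where 5.78% of all genes were above and 2.61% below. These were the desmosomal genes Dsg2 (297 against 123 and 22.2), Dsc2 (55.7 against 23.7 and 1.08) and Pkp3 (171 against 58.95 and 11.05). In 2 others of the 18 the pit array alone exceeded the floor. Cgn, a tight junction protein, was 2-fold below both as deposited (16.1 against 51.6 and 50.1) and not after quantile normalization. Cdh1, whose protein E-cadherin served to choose pit and zymogenic cells, was at 298 against 211 and 21.5, under the floor in zymogenic cells. Of 16 measured lineage factors, Foxq1 and the epithelial ETS factor Ehf (264 against 109 and 6.34) were 2-fold above both others, and Xbp1, a driver of secretory cells, was 2-fold below (103 against 263 and 539). The same shares of all genes, 5.78% and 2.61%, apply here.

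The other 4-fold members belong to none of the lists. Gng4, a G protein γ subunit, was at 348 on the pit array against 28.5 and 28.8 (12.1-fold), while neither further set for the gene exceeded the floor in any lineage. Inpp5a, a phosphatase that ends inositol trisphosphate signals, was at 141 against 17.5 and 3.98 (at least 6.07-fold). The transcriptional regulator Tcf23 was at 154 against 34.6 and 1.56 (4.44-fold), and Lbh, another such regulator, at 99.4 against 23.9 and 8.14 (4.15-fold). The methyltransferase gene Setd4 was at 129 against 28.99 and 27.6 (4.43-fold). Fbf1, a protein of cilia and apical junctions, was at 125 against 16.98 and 28.2, 4.43-fold as deposited and 3.77-fold after quantile normalization. Jakmip1 (116 against 22.6 and 0) and Tcp11 (97.5 against 13.4 and 7.82), known from neurons and testis, were at least 4.98-fold and at least 4.19-fold higher.

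Quantile normalization added 9 genes that were under 4-fold as deposited. Muc5ac moved from 2.88-fold to 4.85-fold, S100a6 from 3.57-fold to 5.31-fold, and Mal, a proteolipid of apical transport (1019 against 306 and 10.6), from 3.34-fold to 4.74-fold. The cytochrome P450 gene Cyp2s1 (819 against 249 and 15.5), the hydrolase gene Abhd2 (409 against 104 and 25.5) and Dgat2, which makes triglyceride (222 against 59.5 and 14.3), came to 4.15-fold, 4.41-fold and 4.23-fold. Kctd14 (94.8 against 26.5 and 7.84), Scnn1a and Gadd45b completed them. On the deposited scale the genes just inside the 4-fold mark were Lbh, Rhoc and Klc1, and those just outside were Abhd2 at 3.95-fold, S100a14 at least 3.90-fold and Gadd45b at 3.83-fold.

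**Figure D3:**
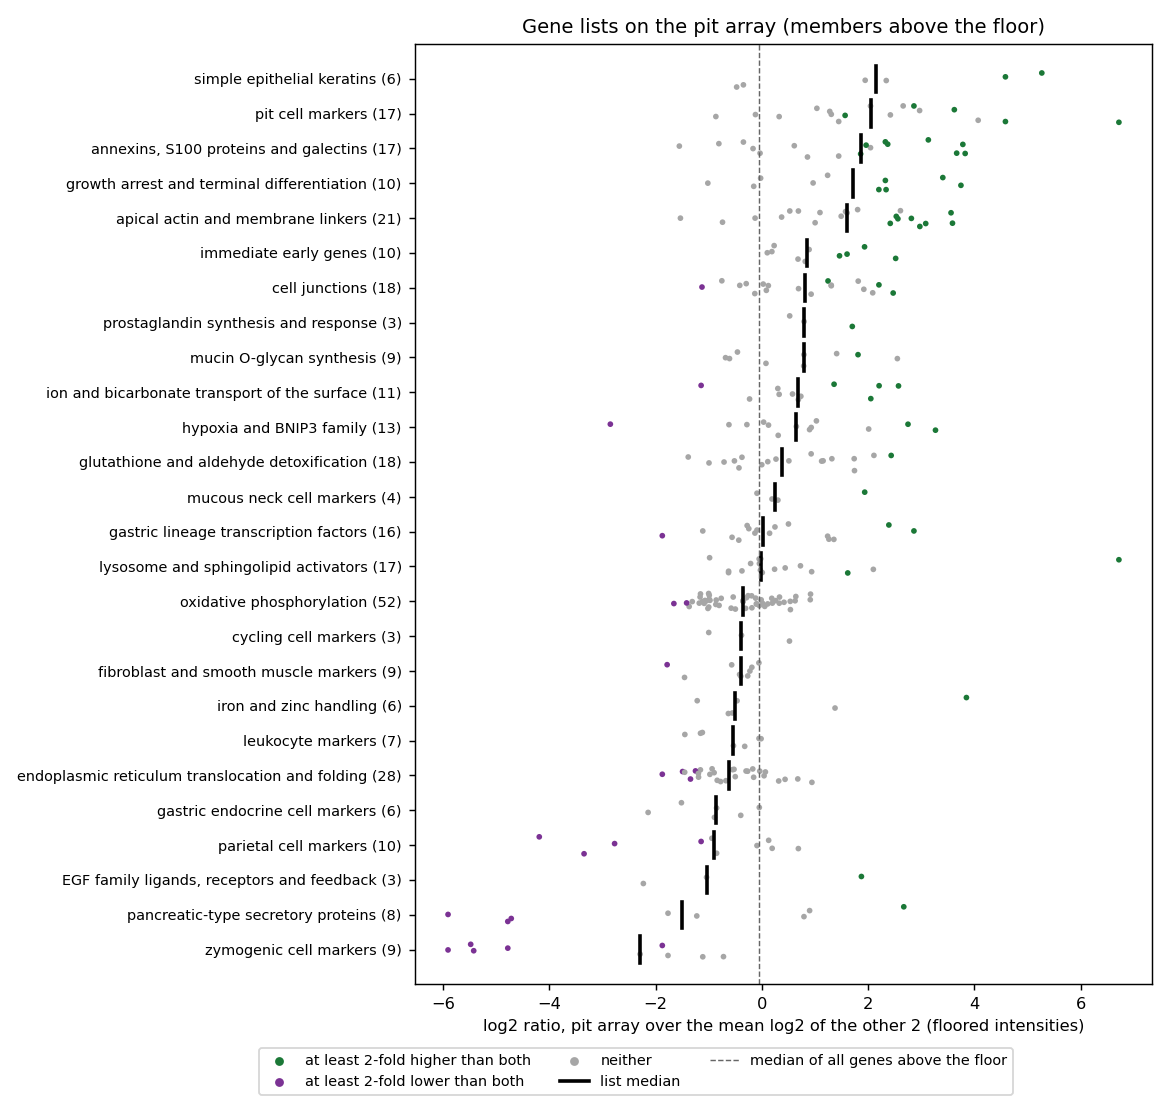
Log2 ratio of the pit array to the mean log2 of the other 2 arrays (x axis) for each member above the floor of the 26 lists with at least 3 such members, 1 row per list with their number in brackets; black bars are list medians and the dashed line is the median of all 4138 genes. Keratins, pit markers, calcium-binding proteins, growth-arrest genes and actin genes have medians from 1.60 to 2.14. Of these lists, the keratins alone have a negative median against parietal cells taken singly (-0.91, as deposited). Zymogenic markers have the lowest median, at -2.29.

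Digestive secretory proteins were among the lower genes. Pla2g1b, the pancreatic-type phospholipase A2, was at 45.8 on the pit array against 692 and 10938, 15.1-fold below the parietal value, and Clps, the colipase that anchors pancreatic lipase, at 199 against 2889 and 10450.5 (14.5-fold). Pgc, pepsinogen C, was under the floor in pit cells (9.88 against 217 and 4593, at least 9.35-fold), and Chia1, the acidic chitinase of gastric juice, close to it (33.9 against 232 and 9916, 6.83-fold). Pdia2, a disulfide isomerase of pancreas-type secretory cells, was at 8.46 against 164 and 2520.4 (at least 7.05-fold). All 5 of these were highest in zymogenic cells, with the parietal value above the floor and nearer to the pit value.

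Both subunits of the gastric proton pump were low in pit cells. Atp4b, the β subunit, was at 102 on the pit array against 4402 and 793, which is 43.05-fold below parietal and 7.75-fold below zymogenic cells. Atp4a, the catalytic subunit, was at 12.5 against 214 and 261 (at least 9.22-fold). Clic6, an intracellular chloride channel protein of parietal cells, was at 10.6 against 232 and 109 (at least 4.67-fold), although its further probe set was within 2-fold of the floor on all 3 arrays (19.5 against 29.1 and 20.01). With Slc4a2, they were the 4 of 10 measured parietal markers that were 2-fold below both others as deposited, against 2.61% of all genes.

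Plasma carrier proteins formed a further pair. Ttr, which carries thyroxine and retinol-binding protein, was at 31.1 on the pit array against 232 and 2889 (7.47-fold), and Apoa1, the main protein of high-density lipoprotein, at 12.4 against 734 and 158 (at least 6.77-fold). They differed in which other lineage was high, zymogenic for Ttr and parietal for Apoa1. Ifi27, an interferon-inducible protein, was at 18.95 against 426 and 226 (at least 9.72-fold), but its further probe set (46.7 against 58.2 and 26.7) was within 2-fold of both others, and the 4-fold mark was not passed when probe sets were averaged. Smim38, a small membrane protein, was at 98.7 against 1534 and 599 (6.07-fold). Csf1r, the receptor that marks macrophages, was under the floor in pit cells (22.4 against 111 and 374, at least 4.75-fold). Its further probe sets did not repeat this (13.4 against 20.4 and 18.5, and 8.24 against 8.38 and 28.2). Averaging the probe sets of Csf1r left it under the 4-fold mark. The calponin Cnn3, which binds actin (12.01 against 111 and 145), and the nucleoside diphosphate kinase Nme1 (34.3 against 156 and 141) were at least 4.76-fold and 4.11-fold lower as deposited. After quantile normalization Csf1r, Cnn3 and Nme1 were under 4-fold, and Acat1, a mitochondrial thiolase, passed it (23.5 against 139 and 74.8).

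A further 5 lower genes are given with their other probe sets. Pvr, an adhesion receptor, was at 142 against 1078 and 3866 (7.58-fold), Clvs1, which binds phosphoinositides, at 42.9 against 284 and 4567 (6.60-fold) and the RNA-binding protein gene Rbm42 at 143 against 882 and 4531 (6.16-fold). Dcaf17 (19.7 against 123 and 1945) and the acylphosphatase gene Acyp1 (0 against 117 and 3036) were at least 5.27-fold and at least 5.02-fold lower. Further probe sets of Clvs1, Rbm42, Dcaf17 and Acyp1 stayed below the floor in all lineages, and the 1 for Pvr above it went the other way (141 against 48.7 and 4.35). Just inside the 4-fold mark on this side lay Clic6, Car9 and Nme1, and just outside lay Cnpy2, a chaperone of the endoplasmic reticulum (26.02 against 96.9 and 139, 3.72-fold), Tmem223 (at least 3.64-fold) and the initiation factor gene Eif3c (3.63-fold).

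**Figure D4:**
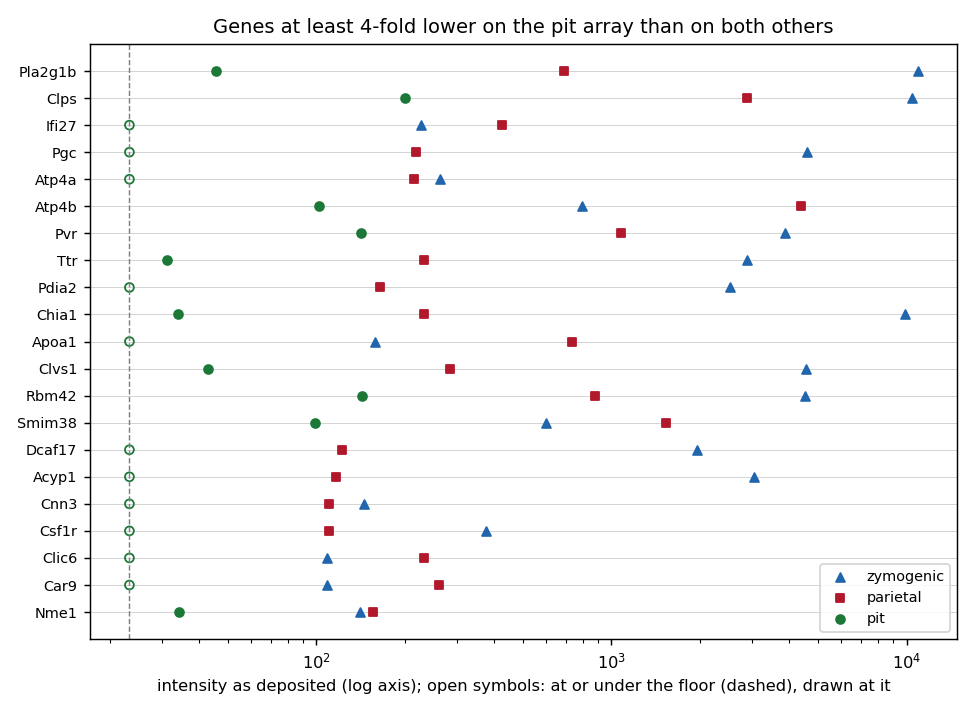
Intensity as deposited (x axis, log scale) of the 21 genes at least 4-fold below both other lineages in pit cells, 1 row per gene, with 1 symbol per array; open symbols are values at or under the floor of 23.3, drawn at it. In 11 rows the pit symbol is open, and the highest symbol is zymogenic in 14 rows and parietal in 7.

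Broad gene groups differed by smaller amounts, and as deposited the respiratory list had a negative median against parietal cells alone. Genes of the endoplasmic reticulum, which translocate and fold secretory proteins, had 28 of 36 members above the floor somewhere, of which 0 were 2-fold above both others and 4 were below, with a median of -0.61. These 4 were Sec61b (61.5 against 146 and 167), a channel subunit, Dad1 (69.3 against 213 and 179), an oligosaccharyltransferase subunit, Hspa5 (119 against 268 and 297), the main chaperone of the compartment, and Xbp1. After quantile normalization 2 of them, Dad1 and Xbp1, were still 2-fold below both. Respiratory chain and ATP synthase genes had 52 of 54 members above the floor, of which 0 were 2-fold above both others and 2, Atp5c1 (41.1 against 177 and 94.6) and Uqcrq (22.6 against 58.5 and 65.9), were below, with 7 below after quantile normalization. Over all genes 2.61% were 2-fold below both others as deposited, and 117 of the 4138 were after quantile normalization. The median log2 ratio of the respiratory list was -0.97 to parietal and 0 to zymogenic cells, and 24 of 52 were at least 2-fold below parietal cells, against 12.0% of all genes. Against zymogenic cells 7 of the 52 were at least 2-fold higher and 3 lower, where 18.7% of all genes were higher and 10.3% lower. As deposited, the genes detected on every array had medians of -0.29 to parietal and 0.21 to zymogenic cells, so the sign was shared on the parietal side alone.

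Each other lineage was then taken alone, and both comparisons share the pit array. Against parietal cells of the same units, 40 genes (0.967%) were at least 4-fold higher in pit cells and 101 (2.44%) lower. The split was 50 and 55 after quantile normalization and 11 and 579 by the BioB and BioC controls. Where both arrays exceeded the floor, the largest ratios on the high side belonged to Psapl1, Krt20, Gng4, Lgals3 and Efhd2, and on the low side to Atp4b, the interferon regulator Irf7 (41.1 against 762 and 21.6), Lgals2, Smim38 and Pla2g1b. Against zymogenic cells 291 (7.03%) were higher and 139 (3.36%) lower, 264 and 215 after quantile normalization, and 243 and 111 by those controls. Where both arrays exceeded the floor, the largest ratios there were those of Lyzl4, a lysozyme-like gene (5144 against 5458 and 24.6), Olfr870, an odorant receptor gene whose probe set is among the 80 behind the floor (3341 against 4083 and 25.2), Hsd17b11, a lipid droplet dehydrogenase (1657 against 887 and 29.2), Cdc26, a subunit of the anaphase-promoting complex (4422 against 4859 and 89.04), and Tagln2, an actin-binding protein (2243 against 2469 and 54.8). On the low side, by the same limit, stood Chia1, Pla2g1b, Clvs1, Ttr and Clps.

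The 2 other lineages were also set against each other. Of the 239 genes 2-fold above both others in pit cells, 61 (25.5%) were also at least 2-fold higher in parietal than in zymogenic cells, and 0 the other way round. Over all 4138 genes these shares were 20.9% and 7.64%. Of the 108 genes 2-fold below both others in pit cells, 13 were higher in parietal and 19 in zymogenic cells by that measure. Genes at the floor on both other arrays count in neither direction.

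The only repeat within an array is a further probe set for the same gene. Of the 37 higher genes 23 have one, in 11 it was above the floor somewhere, and in 7 of those it was also at least 2-fold above both others, with 0 at least 2-fold below. They were Psapl1 (531 against 25.6 and 14.03), Cybrd1 (81.3 against 11.3 and 3.14), Pdlim1 (140.0 against 17.6 and 9.60), Anxa2 (154 against 45.8 and 4.20), S100a16 (140.2 against 32.1 and 26.8), Ndrg1 (110.5 against 28.1 and 0.293) and Efhd2 (47.2 against 16.2 and 5.07). The further sets of Btg1, Lmna, S100a10 and Lbh were less than 2-fold above both. When probe sets were averaged, 27 of the 37 stayed at least 4-fold higher. Btg1, Lmna and Lbh did not, nor did Car3, Tmem43, Fmo5, Clca1, Jakmip1, Setd4 and Klc1, whose further sets were all under the floor. Of the 21 lower genes, 15 have a further set, 11 one above the floor, and 6 one that was 2-fold below both others, namely Pla2g1b, Clps, Ttr, Apoa1, Smim38 and Cnn3. For Apoa1 all 3 further sets were, at 8.40 to 14.4 in pit cells. Probe sets whose names carry a suffix for shared or less specific matches gave 15 of the 37 values and 13 of the 21.

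**Figure D5:**
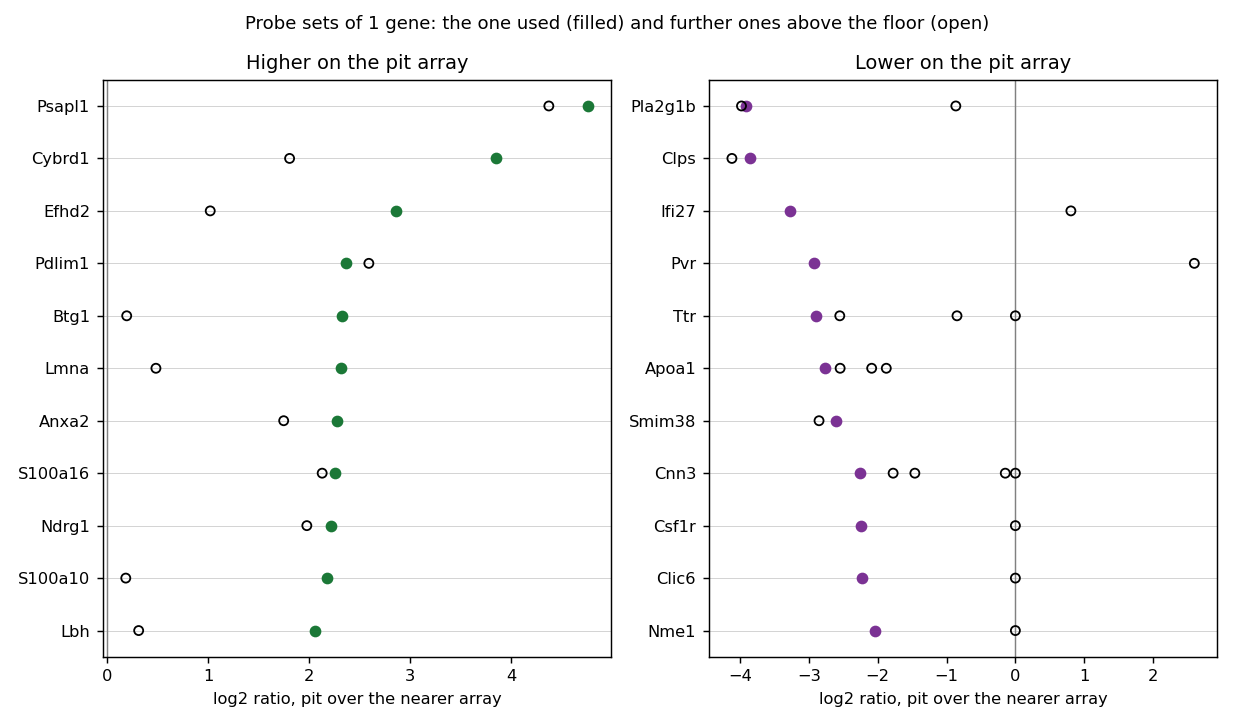
Log2 ratio of the pit array to the other array nearer to it (x axis) for genes whose further probe sets exceed the floor, the genes above both other lineages on the left and those below both on the right; filled points are the probe sets used and open points the further ones. Open points lie close to the filled one for Psapl1, Pdlim1, S100a16, Clps and Smim38, and those of Pvr and Ifi27 lie on the opposite side of 0.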

How the data were processed

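The data are 3 arrays, 1 for each of the pit, parietal and zymogenic lineages, and p-values cannot be had from them. Linear intensities are used as deposited by the authors, 1 per probe set and array. How probes were summarised, corrected for background and scaled is not given in the sources used here. Per the labels, the RNA was nuclear, while the design text speaks of total RNA.

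Of 45101 probe sets, 64 are controls, 34958 name 1 gene in the platform's annotation, and 932 name several and were left out. Names of 34754 were updated through RefSeq gene identifiers. Each of the 18194 genes was given by its probe set of highest mean. Values were raised to the floor of 23.3 before log2 ratios were taken, and arrays were compared as deposited and after quantile normalization. With 3 arrays, it is their number that limits precision.

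All genes at least 4-fold above or below both other arrays are named, with those that pass in 1 scaling only given as such, the 3 genes on either side of the threshold, list members at least 2-fold from both others, defining markers, and the 5 largest ratios of each pair. Genes chosen as contrasts within a list, outside this rule, were picked after their values were seen. The members and lists were chosen with earlier results of these data known.

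Alternatives were quantile normalization, scaling to 1 median or to the BioB and BioC controls, a lower or higher floor (90th or 99th percentile), adding the floor to all values as a pseudocount, averaging a gene's probe sets, using transcript-specific ones alone, and thresholds of 2-fold and 8-fold. The calculations used Python 3.11.15, numpy 2.4.6, pandas 2.3.3 and matplotlib 3.10.9 and were tested on simulated data.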

Additional observations from a re-analysis of the deposited data

Results flagged for a closer look

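Probe sets without a gene in the platform annotation were left out of the comparisons above. Of 510 such probe sets above the floor on at least 1 array, 6 (1.18%) were at least 4-fold above both other lineages in pit cells and 1 (0.196%) was at least 4-fold below. The highest fold on that side was at least 9.48-fold, from a pit value of 220.4 against 1.61 and 4.22 in parietal and zymogenic cells. The next was at least 7.67-fold, from a pit value of 178 with both other values under the floor. The 1 on the low side had a pit value of 29.5 against 148 and 2415, a fold of 5.00.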

How the results depend on the processing

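Genes at least 4-fold above both others in pit cells numbered 37, and 66 with 1 median, 9 with the BioB and BioC controls, 63 and 1 with floors at the 90th and 99th percentile, 22 with the floor as a pseudocount, 23 with transcript-specific probe sets, and 239 and 7 at thresholds of 2-fold and 8-fold. Genes at least 4-fold below both numbered 21, and 36 and 0 with those floors, 13 when probe sets were averaged, 9 with transcript-specific probe sets, and 108 and 5 at those thresholds. The 1 gene left at the higher floor was Psapl1. Genes at least 4-fold above parietal cells numbered 40, and 11 with the controls and 25 with the pseudocount. Those at least 4-fold below them numbered 101, and 55 after quantile normalization, 579 with the controls and 54 with the pseudocount. Those at least 4-fold below zymogenic cells numbered 139, and 215 after quantile normalization. Other counts stayed within 1.5 times. With the controls, the list medians of hypoxia genes (0.65) and ion transport genes (0.69) became -0.12 and -0.041, and of the 26 lists 13 others moved by more than the probe-set scatter. Of 68 named genes, 50 moved so with the controls, 27 with the pseudocount, 22 when probe sets were averaged and 7 after quantile normalization. The cause of these shifts was not tested. No paired analysis was possible because each lineage has 1 array, and leaving out the parietal or the zymogenic array gives the counts against the remaining lineage alone. Values under the floor on this scale, including many further probe sets, cannot show a difference.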

Other observations

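The pit markers that were not 2-fold above both other lineages are given here by value. Gkn1, a gastrokine, was at 8307 against 10493 and 12.5, and Ctse, the aspartic protease cathepsin E, at 2105 against 2391 and 64.8. Quantile normalization turned the direction of Ctse against parietal cells (2629 against 1394). Anxa10, an annexin of gastric epithelium, was at 201 against 233 and 18.6, Vsig1, a junctional adhesion protein of the stomach, at 210.1 against 233 and 45.03, and Lgals4, a galectin of gut epithelium, at 251 against 159 and 3.89. After quantile normalization Anxa10 and Vsig1 differed from the parietal value by less than the scatter between probe sets. Cldn18, the claudin of gastric tight junctions, was at 80.2 against 45.3 and 9.27, and passed 2-fold after quantile normalization. Tmem45b was at 92.5 against 62.6 and 17.8 and the calpain Capn9 at 31.1 against 26.5 and 2.79. Muc1, a membrane mucin (42.5 against 137 and 43.9), and the sulfotransferase Sult1c2 (103 against 337 and 37.1) were lower in pit than in parietal cells by at least 2-fold.

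Of the 37 higher genes, Psapl1 remained at least 4-fold above both others under all 8 alternatives of scaling, floor and probe sets. Krt20, Cybrd1, Gng4, Bnip5, Ahnak2 and Rnase4 did so under 7 of the 8, and failed with the floor at the 99th percentile. That floor, 868, lies above the pit value of each of them, so they could not pass it. Under the BioB and BioC scaling the 9 that remained were these 7 with Krt7 and Car3.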
